A study of Bos taurus with 40 samples.

Results

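The glutathione transferases (GST and MGST), UDP-glucuronosyltransferases (UGT) and sulfotransferases (SULT) attach a water-soluble group to drugs, pollutants, hormones and breakdown products. All genes whose symbols start with GSTA, GSTM, GSTT, GSTO, GSTP, GSTK, GSTZ, MGST, UGT1, UGT2, UGT3, UGT8 or SULT were taken, which gave 31 of the 13570 genes in the count tables. They comprise 14 soluble GST genes, 3 MGST genes, 6 UGT genes and 8 SULT genes. All 31 had at least 1 read in at least 1 sample and were tested.

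RNA was sequenced from 4 sites, the liver, the abdominal fat, the longissimus dorsi muscle and the pituitary gland, of 10 Korean cattle slaughtered at over 22 months of age. The animals were 5 cows and 5 bulls, without any treatment or genetic change, and each gave 1 library per tissue, so that every tissue had 5 female and 5 male samples and the series 40. The reason for comparing them was to find genes that differ between the sexes in each tissue, and across tissues. Expression is given as CPM, the reads of a gene relative to the size of its library, after TMM scaling, the adjustment of library sizes that edgeR makes; it does not account for gene length, so levels are compared between samples and not between genes.

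GST enzymes couple the tripeptide glutathione to reactive, electron-poor compounds. UGT enzymes sit in the membrane of the endoplasmic reticulum and transfer glucuronic acid, or in some members another sugar, from a UDP-sugar, while cytosolic SULT enzymes transfer sulfate from the donor PAPS. The liver is the main site of these reactions in mammals, and the attached group usually makes the product easier to excrete in bile or urine and, for hormones, less active.

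Gene counts summed to 5173092 to 19165864 reads in a sample, with a median of 10005607, so that 3 reads in a sample, taken as the floor of detection, corresponded to 0.157 to 0.580 CPM. Every sample carried the markers of its labelled tissue: the summed liver markers, albumin among them, stood at 135946 to 331965 CPM in liver and the muscle markers at 136272 to 218167 CPM in muscle. The hormone genes and other pituitary markers summed to 82844 to 286085 CPM in pituitary gland and the fat markers to 6414 to 24083 CPM in fat. One library went against its label. The liver labelled bull 3 had 8694 reads of XIST, the RNA of the inactive X chromosome, and no read of the Y-linked genes DDX3Y, USP9Y and ZFY. Its profile was closest to the liver of cow 4 (Pearson's r 0.993 across genes, against 0.987 for the next liver pair), although their counts differed by more than sampling noise (chi-square per gene 13.2, against 39.3 to 199 for the other liver pairs). The sex differences of the 31 genes in liver that are described gene by gene are given with and without it. The counts of genes higher in liver than in fat (19), muscle (25) and pituitary gland (23), described further on, were the same without it. The fat library of bull 5 had a summed level of fat markers of 24083 CPM, above the 6414 to 13787 CPM of the other 9. It also had few Y-linked reads for a bull, 23 of USP9Y, 2 of DDX3Y and 3 of ZFY, where the fat of the other 4 bulls had 311 to 539, 20 to 45 and 96 to 138 and the fat of cows at most 2, 0 and 1. Its XIST reads were few as well, at 18, against 1 to 9 in the fat of the other 4 bulls and 3855 to 13860 in the fat of cows.

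As a group, the conjugation enzymes had their highest summed level in liver. Their summed level was 6411 ± 1251 CPM in liver (SD, n = 10), 3585 ± 1645 in fat, 888 ± 189 in muscle, and 606 ± 93.4 in the pituitary gland. Without the liver labelled bull 3 the liver sum was 6206 ± 1135 CPM (n = 9). The fat library of bull 5 had the highest sum in fat, 7115 CPM, and raised the fat mean and SD. The median was 3217 CPM in fat and 6441 CPM in liver. Fat sums without this library are not given. As a plain share of the reads, without TMM scaling, the means were 0.495% in liver, 0.443% in fat, 0.0663% in muscle and, above muscle, 0.0837% in the pituitary gland, so the order of the last 2 tissues and the size of the gap between liver and fat depended on the scaling. The families differed. UGT genes summed to 682 ± 114 CPM in liver and, outside it, to 0.499 (fat), 2.11 (muscle) and 1.12 CPM (pituitary gland). SULT genes reached 1934 CPM in liver and 844 CPM in fat, and soluble GST genes 2388 and 979 CPM. The MGST genes stood at 1407 ± 515 CPM in liver and 1761 ± 841 CPM in fat, or 0.107% and 0.218% of the reads without the scaling. Their medians were 1369 CPM in liver and 1640 CPM in fat. The fat library of bull 5 was also the highest in fat for the soluble GST, MGST and SULT sums (2344, 3139 and 1631 CPM). The fat means of these families, and the excess of MGST in fat, therefore rest partly on this library. In bulk tissue, fewer cells of a type and less RNA per cell cannot be told apart.

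**Figure D1:**
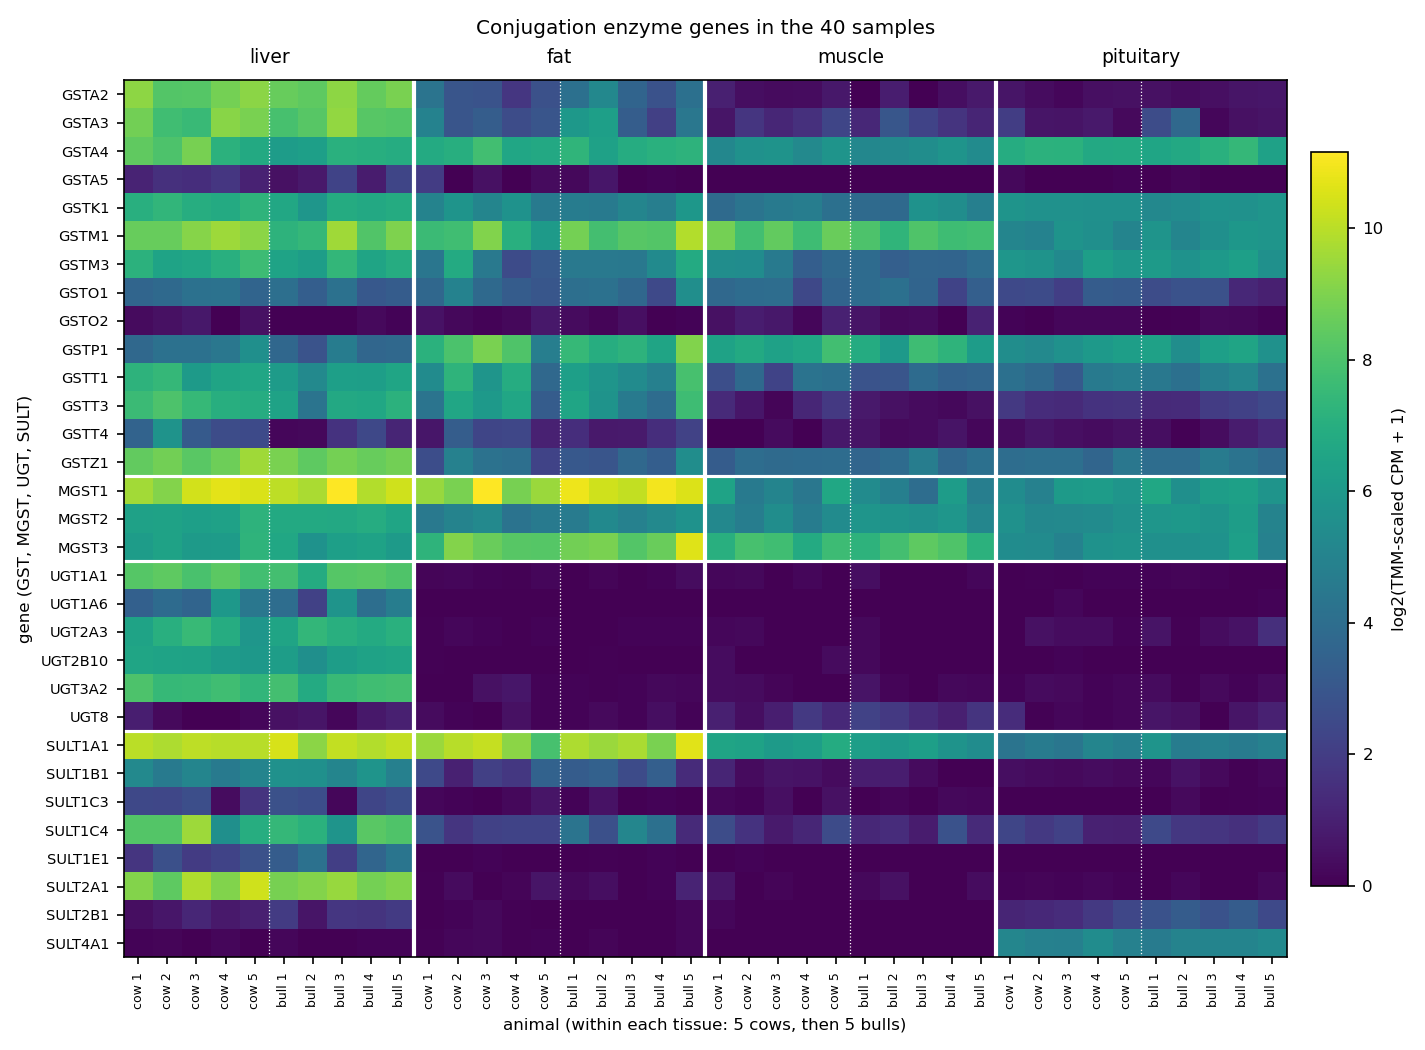
Level of the 31 genes (vertical axis, by family) in the 40 samples (horizontal axis, by tissue and sex), with colour giving log2(CPM + 1) from dark (0) to bright. The liver columns are the brightest for most genes, and the UGT genes are dark outside liver. UGT8 is dark in liver too, at 3.65 CPM or less in every sample. SULT4A1 is bright in the pituitary columns only, at 23.8 to 41.4 CPM.

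Tissues were compared in a model with sex and tissue over the 40 samples, by edgeR's quasi-likelihood test, and a gene was called higher at an adjusted p under 0.05 and at least a 2-fold difference. By this rule 17 of the 31 genes (54.8%) were higher in liver than in each of the other 3 tissues, against 10.1% of all genes tested. They were 6 GST, 1 MGST, 5 UGT and 5 SULT genes. One gene was highest in fat (MGST3; 6.93% of all genes were), 1 in muscle (UGT8; 8.13%) and 2 in pituitary gland (SULT2B1 and SULT4A1; 12% of all genes). The other 10, of which 8 were GST genes, were highest in no tissue alone. Between pairs of tissues, 19 genes were higher in liver than in fat (21.2% of all genes were) and 2 in fat than in liver (26.2%). Against muscle the counts were 25 (21.6%) and 4 (24.8%), and against pituitary gland 23 (21.1%) and 3 (27.1%). The median difference of the 31 genes was 1.73 on the log2 scale for liver to fat, 4.79 for liver to muscle and 4.74 for liver to pituitary gland, where the medians of all genes were -0.13, -0.11 and -0.12. Fat exceeded muscle in 14 genes (23.8%) and was lower in 1 (19.1%), and it exceeded pituitary gland in 17 (22.7%) and was lower in 4 (24.3%). Muscle was higher than pituitary gland in 7 genes (22.6%) and lower in 6 (25.2%), a balance that turned to 3 against 12 with scaling by library sizes alone.

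**Figure D2:**
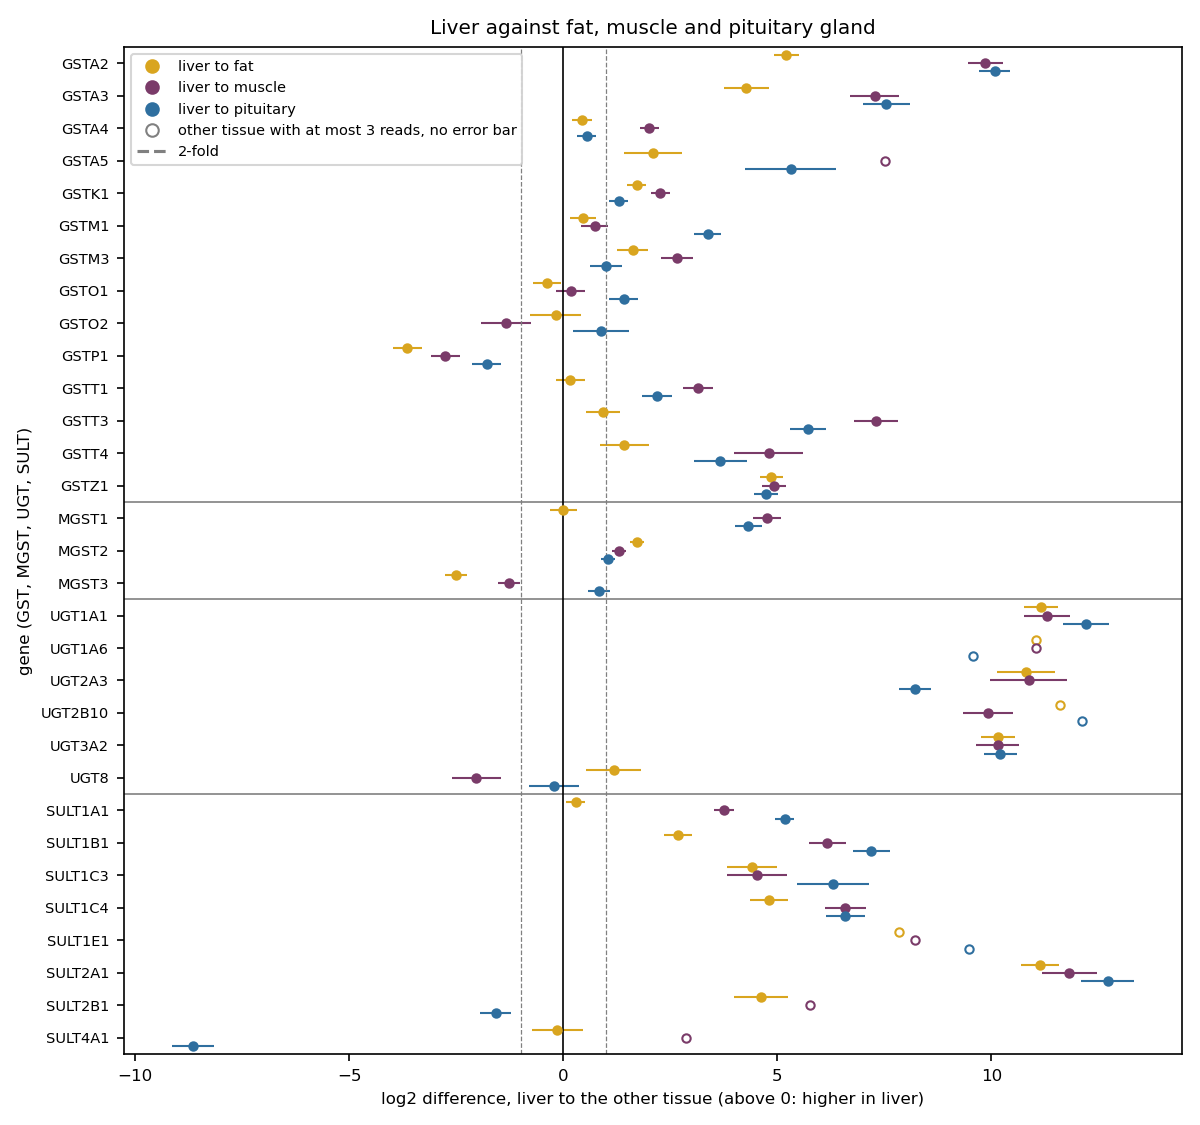
Log2 difference of liver from fat, muscle and pituitary gland for each gene (points; bars, standard error; open points, the other tissue holds 3 reads or fewer in all and the value depends on the prior count). Dashed lines mark a 2-fold difference, and UGT1A1 (11.16 to 12.22) and SULT2A1 (11.12 to 12.71) lie far on the liver side, while GSTP1 lies on the other side in all 3 comparisons.

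Among the alpha-class GST genes, GSTA2 and GSTA3 were liver genes. GSTA2, a broad detoxifying enzyme that also reduces organic hydroperoxides, had 288 to 615 CPM in liver (median 416) and 2.44 to 35.7 CPM in fat (median 8.93), and stayed below 1 CPM in muscle and pituitary gland. The ranges of liver and the other tissues did not overlap, and the log2 difference was 5.21 to fat (SE 0.29, adjusted p = 4.19e-17), 9.86 to muscle and 10.08 to pituitary gland. GSTA3, which in several mammals also performs an isomerase step of steroid hormone synthesis, had 188 to 648 CPM in liver (median 304), 3.37 to 77.0 in fat (median 8.77), 0.552 to 6.93 in muscle and 0.153 to 12.7 in pituitary gland. Its difference from liver to fat was 4.28 (SE 0.52). GSTA5 was close to the floor, at 0.429 to 4.06 CPM in liver, with 0 reads in muscle and 6 in pituitary gland; its liver level was at least 43.8-fold above muscle when muscle is set to the floor of 3 reads over the 10 samples.

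GSTA4, the alpha-class enzyme known for conjugating the lipid peroxidation product 4-hydroxynonenal, did not share this pattern. It had 70.4 to 464 CPM in liver (median 130.4), 82.9 to 218 in fat (median 122), 82.2 to 172 in pituitary gland (median 113) and 34.7 to 54.0 in muscle (median 42.2). Liver, fat and pituitary gland overlapped, and liver passed the rule against muscle only (log2 2.01, SE 0.23). In the RefSeq order of genes, GSTA2, GSTA3, GSTA4 and GSTA5 are neighbours in 1 cluster, so this difference in tissue pattern lies within a group of adjacent genes. Only reads with a unique alignment entered the counts, which can lower the counts of such similar copies.

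GSTZ1, the maleylacetoacetate isomerase of tyrosine breakdown, was separated from the other tissues by liver samples that did not overlap with them. It had 318 to 752 CPM in liver (median 426), 3.70 to 43.9 in fat (median 10.8), 8.41 to 25.7 in muscle and 11.5 to 23.8 in pituitary gland, with log2 differences of 4.86, 4.93 and 4.74 (SE 0.28; largest adjusted p = 5.32e-17). GSTK1, a GST of mitochondria and peroxisomes, was higher in liver by less, at 58.0 to 162 CPM against 36.4 to 54.7 CPM in pituitary gland, the next tissue (log2 1.29, SE 0.22). With library sizes alone this last difference missed the threshold (log2 0.43, adjusted p = 0.0815).

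The theta-class genes, which lie together in the genome and act on small halogenated compounds and similar substrates, were found in both liver and fat. GSTT1 had 37.4 to 173 CPM in liver and 12.6 to 243 in fat (log2 0.17, not called), against 3.68 to 18.03 in muscle and 7.83 to 34.2 in pituitary gland. GSTT3 had 18.4 to 259 CPM in liver (median 123), 8.50 to 205 in fat (median 57.8), 0.127 to 2.63 in muscle and 1.52 to 4.57 in pituitary gland. Liver and fat overlapped in both genes, and each was called higher in liver than in muscle, by 3.15 and 7.30 on the log2 scale. The difference of GSTT3 from liver to fat was 0.93 (SE 0.40, adjusted p = 0.0466), under the 2-fold limit, and 1.08 (adjusted p = 0.0242) with the animal as a block, where it passed the rule. GSTT4 varied widely, at 0.143 to 51.7 CPM in liver (median 4.51) and 0.618 to 8.71 in fat (median 1.74). Its difference from liver to fat was 1.43 (SE 0.58, adjusted p = 0.0353), and 1.22 with the animal as a block (adjusted p = 0.0521), so the call did not hold there. It was also lost without cow 1, cow 2, cow 3, cow 5 or bull 4.

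The mu, pi and omega classes were not liver genes by the rule. GSTM1 had 148 to 757 CPM in liver (median 448), 65.7 to 925 in fat (median 254), 154 to 448 in muscle (median 242) and 30.3 to 58.7 in pituitary gland (median 45.7), so that 3 tissues overlapped and pituitary gland lay below them. Its neighbour GSTM3 had 72.5 to 201 CPM in liver and 38.3 to 78.1 in pituitary gland, a log2 difference of 0.999 (adjusted p = 0.0177) that fell just under the 2-fold limit, and 4.82 to 112 CPM in fat. GSTO1, which reduces dehydroascorbate and methylated arsenic, had medians of 12.3, 12.7 and 11.9 CPM in liver, fat and muscle and 4.95 CPM in pituitary gland. GSTO2 never exceeded 10 reads or 1.11 CPM in a sample.

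GSTP1, the pi-class enzyme typical of cells other than hepatocytes, was lowest in liver. It had 6.26 to 45.7 CPM in liver (median 14.7), 26.4 to 524 in fat (median 162), 63.7 to 219.7 in muscle (median 101) and 37.5 to 89.7 in pituitary gland (median 56.0). Muscle did not overlap with liver, and the log2 differences of liver to fat, muscle and pituitary gland were -3.65, -2.75 and -1.79 (SE 0.34; adjusted p = 2.09e-11, 8.87e-09 and 2.19e-05).

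The 3 membrane-bound MGST genes each followed another order. MGST1, an abundant enzyme of the endoplasmic reticulum and outer mitochondrial membrane, had 540.4 to 2286 CPM in liver (median 1185) and 474 to 2236 CPM in fat (median 1219), while muscle had 15.1 to 101 CPM and pituitary gland 28.7 to 98.5 CPM. Liver and fat overlapped over most of their range (log2 -0.00, SE 0.32) and both exceeded the other tissues without overlap. MGST2, which can form leukotriene C4, was higher in liver than elsewhere, with a median of 99.5 CPM against 29.5, 42.1 and 49.2 CPM in fat, muscle and pituitary gland. Its smallest difference, to pituitary gland, was 1.05 (SE 0.16) and became 0.21 (adjusted p = 0.258) with library sizes alone, and without cow 5 it fell just under the 2-fold limit (0.97). MGST3, which shares glutathione peroxidase activity with MGST2, was highest in fat, at 154 to 1579 CPM (median 392) against 113 to 336 in muscle, 51.2 to 151 in liver and 29.0 to 78.6 in pituitary gland. Fat overlapped with muscle, where the difference was 1.24 (SE 0.26, adjusted p = 8.21e-05), and without the fat library of bull 5 it was 0.88 and under the 2-fold limit.

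Of the 6 UGT genes, 5 were nearly confined to liver in these libraries. UGT1A1, the enzyme that conjugates bilirubin, had 116 to 337 CPM in liver (median 283) and at most 0.347 CPM in any other sample, a log2 difference of 11.16 to fat (SE 0.40), 11.29 to muscle and 12.22 to pituitary gland. UGT1A6, which acts on small flat phenols and overlaps UGT1A1 in the annotation, had 3.40 to 60.1 CPM in liver, 0 reads in fat and muscle and 3 in pituitary gland. Its liver level was at least 1007-fold above fat and at least 521.5-fold above muscle, with the floor of 3 reads taken over the 10 samples of each. UGT2B10, known in other mammals for conjugating amines, had 46.0 to 92.4 CPM in liver and 2, 5 and 1 reads in fat, muscle and pituitary gland. The ratio of liver to fat was 5626 (95% exact interval 1557 to 46468, counting error only).

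UGT3A2, which in other mammals uses UDP-glucose or UDP-xylose in place of UDP-glucuronate, had 111 to 259.6 CPM in liver (median 199.5) and at most 0.580 CPM elsewhere. Its smallest log2 difference was 10.14 (SE 0.49). UGT2A3 had 56.7 to 185 CPM in liver (median 125) and at most 0.174 CPM in fat and muscle, but reached 1.83 CPM in 1 pituitary gland (median 0.309). Pituitary gland was called higher than fat (log2 fat to pituitary gland -2.60) and muscle (log2 muscle to pituitary gland -2.65) for UGT2A3, and liver exceeded it by 8.21 (SE 0.37). In none of these 5 genes did a liver sample overlap with any sample of another tissue.

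UGT8, the galactosyltransferase that makes galactosylceramide for myelin, was the exception among UGT genes. It had 0.346 to 3.65 CPM in muscle (median 1.52; at most 25 reads in a sample), and medians of 0.317, 0.091 and 0.274 CPM in liver, fat and pituitary gland. Muscle overlapped with each other tissue, and the smallest difference was 1.82 (SE 0.53, adjusted p = 0.00277). The call for muscle did not hold with library sizes alone.

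SULT2A1, which sulfates dehydroepiandrosterone and bile acids, was the SULT gene with the widest gap between liver and the rest. It had 333 to 1300.3 CPM in liver (median 538) and at most 1.16, 0.552 and 0.196 CPM in fat, muscle and pituitary gland, with log2 differences of 11.12, 11.82 and 12.71 (SE 0.44 to 0.63). SULT1E1, the estrogen sulfotransferase, had 2.26 to 19.4 CPM in liver (median 5.68), with 3 reads in fat, 1 in muscle, and 0 in the pituitary gland. Liver was 381-fold above fat (95% exact interval 130 to 1852) and at least 423-fold above pituitary gland. SULT1B1, which acts on thyroid hormones and phenols, had 23.0 to 53.1 CPM in liver, 1.04 to 10.5 in fat and at most 1.24 CPM in muscle and pituitary gland (log2 2.67 to fat, SE 0.33). SULT1B1, SULT1E1, UGT2A3 and UGT2B10 lie in 1 stretch of a chromosome in the RefSeq order, and all 4 were called highest in liver.

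The SULT1C genes were liver genes with a wide spread. SULT1C4 had 45.6 to 735 CPM in liver (median 219.7), 1.55 to 33.4 in fat, 0.762 to 5.96 in muscle and 0.957 to 4.45 in pituitary gland (log2 4.80 to fat, SE 0.45). SULT1C3 had 0.161 to 5.72 CPM in liver (median 4.27) and at most 0.551 CPM elsewhere. Its lowest livers overlapped with the other tissues.

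SULT1A1, the main phenol sulfotransferase, was shared by liver and fat. It had 587 to 1414 CPM in liver (median 1007), 239 to 1627 in fat (median 790.3), 41.9 to 115 in muscle and 18.9 to 54.0 in pituitary gland. Liver and fat overlapped (log2 0.29, SE 0.23, adjusted p = 0.263), and both exceeded muscle and pituitary gland without overlap, liver by 3.76 and 5.17 and fat by 3.46 and 4.88.

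SULT4A1 and SULT2B1 were the pituitary members. SULT4A1, a sulfotransferase of the nervous system without a settled substrate, had 23.8 to 41.4 CPM in pituitary gland (median 31.2), 0 reads in muscle and at most 0.164 CPM in liver and fat. Pituitary gland exceeded fat by 8.51 on the log2 scale (SE 0.39, adjusted p = 4.63e-21). SULT2B1, which sulfates cholesterol and related sterols, had 1.20 to 8.52 CPM in pituitary gland (median 4.37), 0.323 to 2.86 CPM in liver, 6 reads in fat and 1 in muscle. Pituitary gland and liver overlapped, and liver was lower (log2 liver to pituitary gland -1.58, SE 0.36, adjusted p = 0.000194).

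Sex differences were tested within each tissue (M1) and over all tissues with tissue as a term (M2), by the likelihood ratio test of edgeR at an adjusted p under 0.05. The conjugation enzymes gave few calls. One of the 31 passed in pituitary gland (0.745% of all genes did), 1 in liver (0.175%), 0 in fat (0.114%) and 0 in muscle (0.517%), and 1 passed over all tissues (1.69%). In liver, 8 of the 31 (25.8%) had an unadjusted p under 0.05, against 7.45% of all genes, and 9 (29.0%) against 6.58% without the liver labelled bull 3. In fat and muscle 2 each (6.45%) had one, against 6.88% and 10.99% of all genes; the quasi-likelihood test and DESeq2 also called 0 of the 31 in these tissues. Genes whose values did not overlap between the sexes were also counted. Bulls lay above all cows for 1 of the 31 in pituitary gland (0.852% of all genes) and 0 in liver (0.19%). They lay below all cows for 1 in liver (0.357%) and 0 in pituitary gland (0.487%). In fat 0 genes were apart in either direction (0.601% of all genes with bulls above and 0.692% with bulls below; 1.02% and 1.32% without bull 5), and in muscle 0 (0.73% and 0.92%). Within a tissue the p-values measure the spread between animals; over all tissues the fit treats the 4 libraries of an animal as independent.

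**Figure D3:**
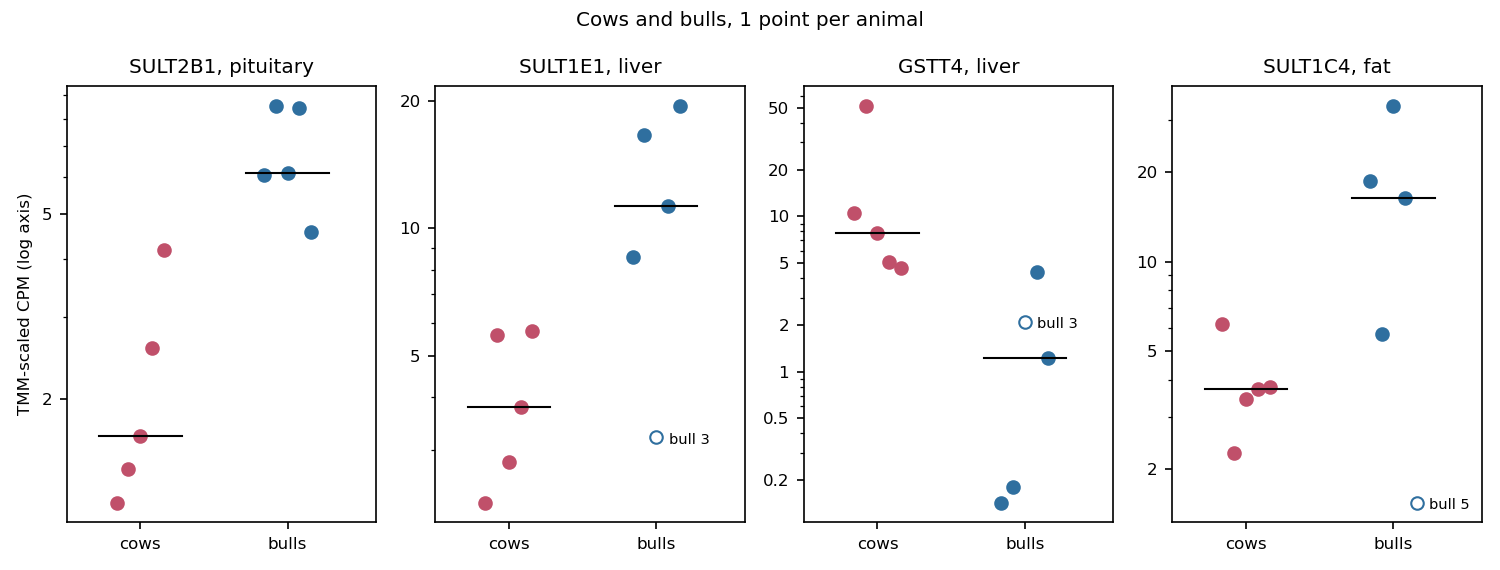
CPM (log axis) of the 5 cows and 5 bulls for SULT2B1 in pituitary gland, SULT1E1 and GSTT4 in liver and SULT1C4 in fat; each point is an animal and the line the median. Open points are the liver labelled bull 3 and the fat of bull 5; all bulls lie above all cows for SULT2B1 (4.57 to 8.52 against 1.20 to 4.17 CPM) and below them for GSTT4 (0.143 to 4.37 against 4.65 to 51.7 CPM).

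SULT2B1 was higher in the pituitary gland of bulls. Cows 1 to 5 had 1.20, 1.41, 1.67, 2.57 and 4.17 CPM and bulls 1 to 5 had 6.06, 8.52, 6.11, 8.42 and 4.57 CPM. The sexes did not overlap, as for 0.852% of all genes in this direction. The log2 difference, male to female, was 1.61 (SE 0.365, adjusted p = 0.00554 by edgeR's likelihood ratio test), and the call held in 14 of 15 alternatives (adjusted p from 1.72e-05 to 0.146). The quasi-likelihood test gave the largest of these, 0.146. The summed level of the pituitary markers also ran from 82844 to 265853 CPM in cows (median 125442) and from 143868 to 286085 CPM in bulls (median 258437), and its part in the result was not tested.

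SULT2B1 was also the 1 gene of the 31 that passed over all tissues. In liver, cows had 0.323, 0.612, 1.28, 0.702 and 0.957 CPM and bulls 2.86, 0.537, 2.42, 2.18 and 2.74 CPM. Bulls 1, 4 and 5 and the library labelled bull 3 were above every cow, and bull 2 was not (log2 1.52, adjusted p = 0.243 by edgeR's likelihood ratio test within liver; 1.46 and 0.375 without the library labelled bull 3). Over the 40 samples the difference was 1.37 (SE 0.302, adjusted p = 0.00245 by the likelihood ratio test). The call held in 16 of 20 alternatives and was lost under the quasi-likelihood test of edgeR, with an adjusted p of 0.0612, and with the animal as a block in voom (log2 0.73, adjusted p = 0.516). Both were also run without the liver labelled bull 3, and the call was lost there too (adjusted p = 0.0827 and 0.581).

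GSTT4 was lower in the liver of bulls. Cows 1 to 5 had 10.6, 51.7, 7.81, 5.05 and 4.65 CPM and bulls 1 to 5 had 0.143, 0.179, 2.09, 4.37 and 1.23 CPM. The sexes did not overlap (0.357% of all genes in this direction), although cow 5 and bull 4 were almost level and cow 2 stood far above the other cows. The log2 difference was -3.24 (SE 0.758, adjusted p = 0.0379 by edgeR's likelihood ratio test). The call held in 7 of 18 alternatives (adjusted p from 0.00591 to 0.464), was lost with the quasi-likelihood test (0.464) and DESeq2 (0.159), and without cow 2 the difference was -2.08 (adjusted p = 0.384). It was also lost without cow 1, cow 3, bull 1, bull 2 or bull 5. Without the liver labelled bull 3 the difference was -3.37 (SE 0.816, adjusted p = 0.0443 by the likelihood ratio test, where 0.464% of all genes passed). Without that library, too, the call was lost with the quasi-likelihood test and with DESeq2.

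SULT1E1 was higher in the liver of bulls once the liver labelled bull 3 was left out. Cows had 2.26, 5.61, 2.82, 3.79 and 5.74 CPM, and bulls 1, 2, 4 and 5 had 8.58, 16.6, 11.3 and 19.4 CPM. The liver labelled bull 3 had 3.22 CPM, within the range of the cows, while the other 4 bulls were above all cows (0.608% of all genes were, without this library). With all 10 livers the log2 difference was 1.57 (SE 0.441, adjusted p = 0.138). Without that library it was 1.80 (SE 0.391), with an adjusted p of 0.00252 by edgeR's likelihood ratio test, 0.00180 by DESeq2 and 0.110 by the quasi-likelihood test. Over all tissues the adjusted p of SULT1E1 by the likelihood ratio test went from 0.0856 (log2 1.30) to 0.0165 (log2 1.56) without it, where 1.34% of all genes passed. The gene had 698 reads in liver and 3, 1 and 0 in fat, muscle and pituitary gland, so this fit rests on the same livers. Without that library the call over all tissues was lost under the quasi-likelihood test and with the animal as a block.

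GSTA4 had the third smallest p in liver. Cows had 346, 263, 464, 141 and 110.1 CPM and bulls 70.4, 78.6, 136, 125 and 119 CPM. Cows 1 to 4 were above every bull, cow 4 by little, and cow 5 was among them, for a log2 difference of -1.29 (SE 0.373, adjusted p = 0.144 by edgeR's likelihood ratio test). The value nearest below cow 4, 136 CPM, was that of the library labelled bull 3, and the next was 125 CPM. The difference passed without cow 4 (adjusted p = 0.0202) or without cow 5 (0.0113), and not without the liver labelled bull 3 (log2 -1.42, SE 0.402, adjusted p = 0.0946). Of all 13148 genes, these fits called 187, 68 and 61, against 23 with all livers.

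In fat, SULT1C4 had the smallest p. Cows had 6.18, 2.27, 3.44, 3.71 and 3.78 CPM and bulls 18.6, 5.70, 33.4, 16.4 and 1.55 CPM. Bulls 1, 3 and 4 were above all cows and bull 5 below them, and the log2 difference was 1.96 (SE 0.628, adjusted p = 0.375 by edgeR's likelihood ratio test). Without the fat library of bull 5 it was 2.25 (adjusted p = 0.0165, where 0.137% of all genes passed). That library also held 12 of the 31 genes at levels above the other 9 fat samples, among them MGST3 and SULT1A1, and 1 below them, SULT1C4 (19.2% of all genes were above and 19.2% below), and its summed liver markers were at 497 CPM against 53.5 to 269 CPM in the others. The next genes in fat were GSTA3 (log2 1.56, adjusted p = 0.691) and GSTA2 (log2 1.09, adjusted p = 0.728), and MGST1 passed only without cow 3 (log2 1.41, adjusted p = 0.0394). That fit called 22 of all 13148 genes, against 15 with all fat samples.

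In muscle, GSTM3 had 42.9, 42.6, 22.8, 9.16 and 13.1 CPM in cows and 13.7, 9.55, 11.6, 11.3 and 14.9 CPM in bulls. Cows 1 to 3 were above every bull and the other 2 cows were not (log2 -1.11, SE 0.417, adjusted p = 0.241 by edgeR's likelihood ratio test). The difference passed without cow 4 only (log2 -1.31, adjusted p = 0.0132), where 553 of all genes passed, against 68 with every animal. GSTT3 (log2 -1.57, adjusted p = 0.350) and MGST2 (log2 0.53, adjusted p = 0.474) followed. In pituitary gland, the next genes after SULT2B1 were SULT1C3, with 6 reads in all and each of them in bulls (adjusted p = 0.304), and GSTA3 (log2 1.90, adjusted p = 0.534). Over all tissues, MGST2 gave a log2 difference of 0.39 (SE 0.122, adjusted p = 0.0652) and passed with DESeq2 (0.0441), without cow 5 or without bull 5. Those fits called 279, 714 and 459 of all 13148 genes, against 222 by the likelihood ratio test on all 40 samples.

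Whether the effect of sex differed between tissues was tested with an interaction term. None of the 31 genes passed by edgeR's likelihood ratio test (0.335% of all genes did), 5 (16.1%) had an unadjusted p under 0.05 against 8.58% of all genes, and the quasi-likelihood test also called 0. The smallest adjusted p were those of GSTT4 (0.154) and GSTA4 (0.194), which both passed without cow 5 (0.0219 and 0.0496). A sex difference called in 1 tissue is therefore not shown to be particular to it.

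Within the livers, 6 of the 31 genes set the library labelled bull 3 and the liver of cow 4 apart from the other 8 on the same side, as did 11.8% of all genes tested. SULT1C4 stood at 54.1 and 45.6 CPM in these 2 livers against 125 to 735 CPM in the others, and SULT1C3 at 0.161 and 0.281 CPM against 2.19 to 5.72 CPM. UGT1A6 was higher in them, at 54.5 and 60.1 CPM against 3.40 to 25.7 CPM. So were MGST1, at 2286 and 1645 CPM against 540.4 to 1484 CPM, GSTM1, at 757 and 741 CPM against 148 to 594 CPM, and GSTA3, at 648 and 570 CPM against 188 to 487 CPM. These 2 livers were compared because of their likeness over all genes, so the values are a description.

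**Figure D4:**
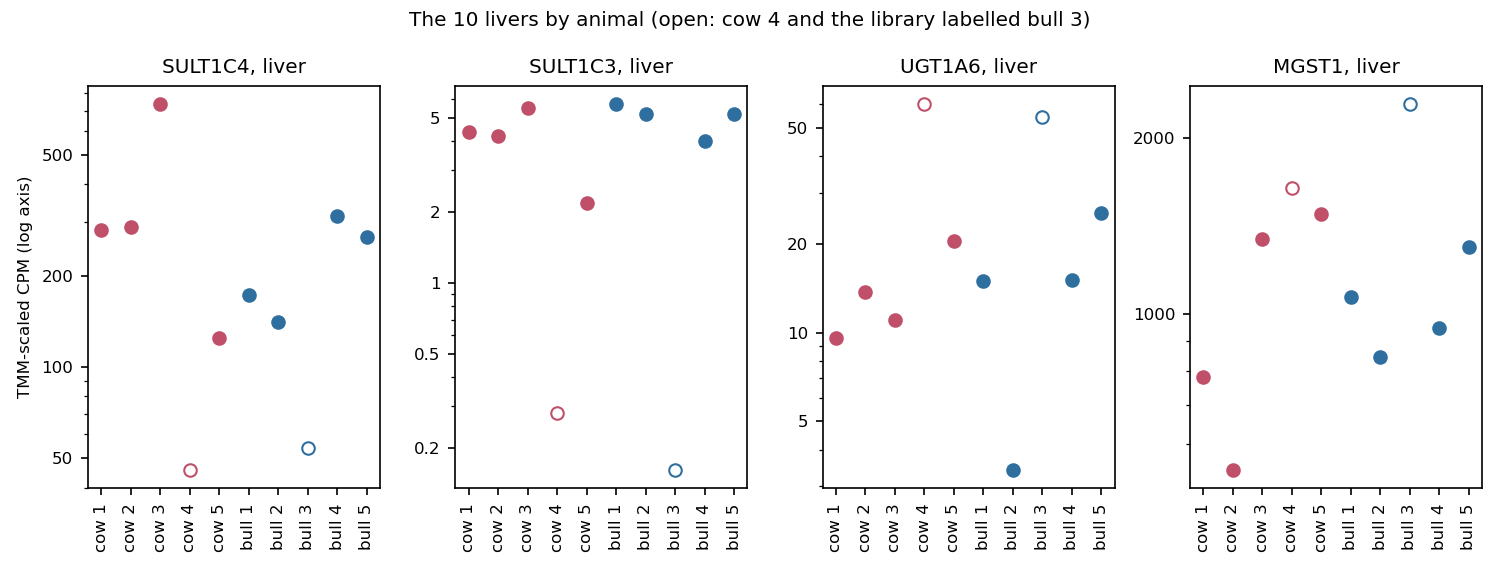
CPM (log axis) of SULT1C4, SULT1C3, UGT1A6 and MGST1 in the liver of each animal (horizontal axis, cows 1 to 5 and bulls 1 to 5); each point is 1 library. Open points are cow 4 and the library labelled bull 3, which lie below the other 8 for both SULT1C genes and above them for UGT1A6 and MGST1.

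GSTA3 varied between animals in fat and pituitary gland alike. In fat it stood at 77.0 CPM in bull 2, 60.6 CPM in bull 1 and 30.1 CPM in cow 1, against 3.37 to 20.8 CPM in the other 7 animals. In pituitary gland the same 3 animals had 12.7, 5.01 and 3.03 CPM, against 0.153 to 0.702 CPM. These animals did not stand apart in liver, where they ranked 5, 8 and 4 of 10, and in muscle bull 2 was highest while bull 1 ranked 7 and cow 1 ranked 10. The gene was picked for this after its values were seen.

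**Figure D5:**
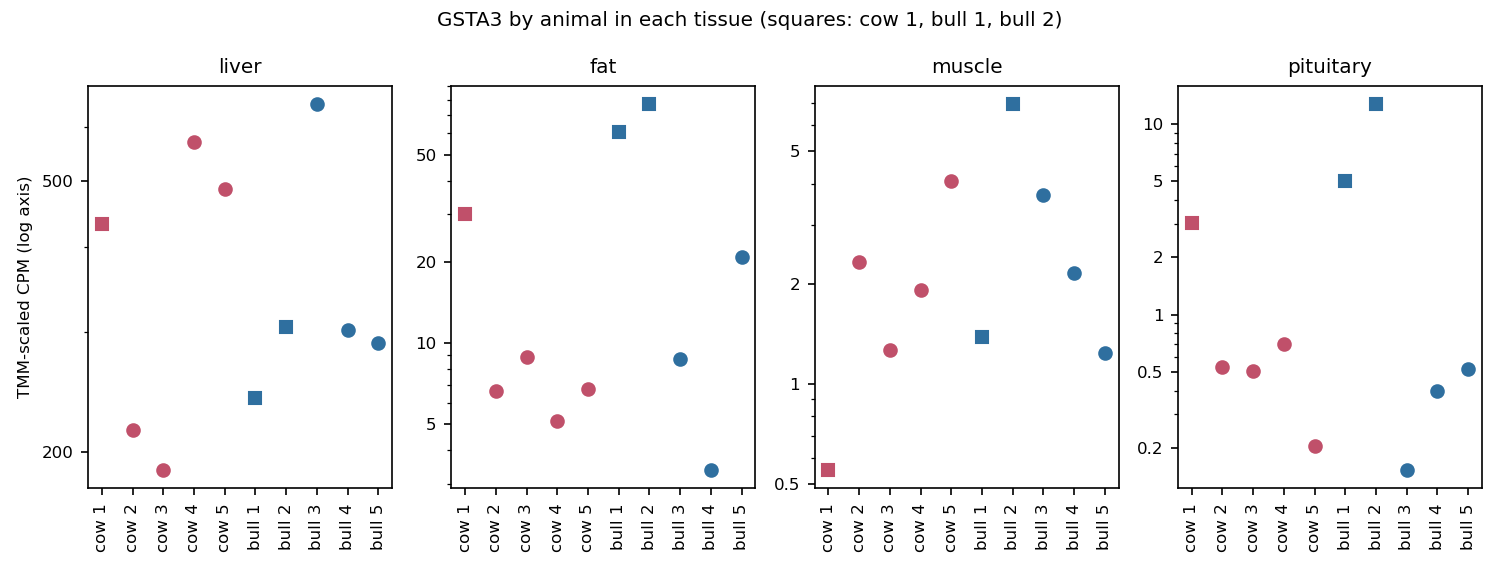
CPM of GSTA3 (log axis) in liver, fat, muscle and pituitary gland; each point is 1 animal. Squares are cow 1, bull 1 and bull 2, the 3 highest in fat (30.1 to 77.0 CPM) and in pituitary gland (3.03 to 12.7 CPM) but not as a group in liver or muscle.

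The genes that supply and serve these enzymes were read from lists of 63 further genes tested, of which 27 were highest in liver by the same rule (10.1% of all genes were). For glucuronidation, 3 of 6 genes listed for the making, transport or use of UDP-sugars were (50%). They were led by UGDH, which makes UDP-glucuronate, at a mean of 867 CPM in liver against 49.1, 19.8 and 39.9 CPM in fat, muscle and pituitary gland. The transporter gene SLC35D2 followed, with a smallest log2 difference of 3.21. For sulfation, 1 of 7 genes was (14.3%), PAPSS2, which makes PAPS, at 151 CPM in liver and 16.4, 1.98 and 16.7 CPM in the others; SUOX, the sulfite oxidase, came next, with a smallest log2 difference of 0.72, under the 2-fold limit. For glutathione, 5 of 14 genes of synthesis and recycling were (35.7%), with GGT1 (smallest log2 difference 3.60) and GSR, glutathione reductase (2.36), in front, and 0 of 8 glutathione peroxidases, where GPX1 averaged 88.0 CPM in liver and 269.6 CPM in fat and GPX2 0.582 CPM in liver. Of 13 genes of other conjugation and oxidation reactions, 11 were highest in liver (84.6%), among them the carboxylesterase gene CES2 (smallest log2 difference 6.44) and INMT, which had 454 reads in liver, 1 in fat and 0 in muscle and pituitary gland, as were 5 of 9 regulators, among them the xenobiotic receptor gene NR1I2 (8.11). Removal of conjugates gave 2 of 6, the steroid sulfatase gene STS (5.03) and the glucuronidase gene GUSB (1.70).

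By sex, 1 of these 63 genes passed in any comparison. Of all genes tested, 0.114 to 0.745% passed within a tissue and 1.69% over all tissues. CES1, a carboxylesterase, was lower in bulls in muscle (6.80 to 74.3 CPM in cows, 2.95 to 10.9 CPM in bulls, log2 -2.47, adjusted p = 0.00172 by edgeR's likelihood ratio test). The sexes overlapped in muscle. The fit over all tissues also called CES1 (log2 -1.05, adjusted p = 0.0372 by the same test). Within liver, where its mean was highest, it was not called, and the sexes overlapped (468 to 899 CPM in cows, 444 to 891 CPM in bulls, with the library labelled bull 3 among them). Nor was it called within fat or pituitary gland (adjusted p = 0.770 and 0.754 by the same test). Alternative fits are not given for CES1. Of all 13148 genes, the quasi-likelihood test called 7 in muscle, where the likelihood ratio test called 68. UGDH and PAPSS2, the donor genes highest in liver, gave 0.40 and 0.44 over all tissues (adjusted p = 0.347 and 0.373).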

How the data were processed

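RNA-seq libraries of 4 tissues from 10 Korean cattle gave 40 samples, grouped by the sex, tissue and animal in the submitters' labels. The authors trimmed the reads with Trimmomatic, aligned them to bosTau7 with Bowtie2 inside TopHat2, and tallied reads with a unique alignment per UCSC gene with HTSeq. The authors deposited raw read counts per gene symbol, 1 table per sample, without normalization. A line without a gene name, holding 0.114 to 2.69% of the reads, was left out. Of 13570 genes, 422 had no read in any sample and 13148 were tested. The counting mode and strandedness are not given in the sources used here. The 31 genes were matched to RefSeq (ARS-UCD2.0), 28 by symbol and 3 by synonym (UGT2A3, GSTT3 and GSTM1), for names and gene order only, since the assembly differs from the one aligned to.

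Sex differences were fitted in edgeR 4.0.16 (R 4.3.3) with TMM factors and glmLRT, the likelihood ratio test of the study's methods. Tissue contrasts used glmQLFTest in a model with sex and tissue. P-values were adjusted over all 13148 genes by Benjamini-Hochberg. Log2 fold changes carry a prior count of 0.125. Exact intervals and floors cover counting error only. The genes, the lists of related genes and the tests were chosen with earlier results of these data known. Genes were named with values where they were called by sex, where they were called highest in a tissue (up to 8 per tissue in order of the smallest difference, the remaining ones described by family), where they had 1 of the 3 smallest p for sex in a tissue, and, in each related list, where they had 1 of the 2 largest liver differences or 1 of the 2 smallest p for sex over all tissues. The related genes of the last kind that are not named had adjusted p above the threshold. Some of the named results are not reported here.

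Alternatives were the quasi-likelihood or likelihood ratio test, DESeq2 1.42.0, RLE factors or library sizes alone, edgeR's filterByExpr, no fold limit, each animal or library left out, and the animal as a block, a fixed term for tissues and a random one in limma 3.58.1 (voom) for sex. The ear tags in the sample titles tie the 4 tissues of an animal together, and deviations from the group means correlated between tissues of the same animal with a mean r of 0.0118 to 0.285. The fits were tested on simulated counts. Figures were drawn with matplotlib 3.10.9.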

Additional observations from a re-analysis of the deposited data

Results flagged for a closer look

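In 12 of the 152 groups of 5 samples examined, 1 sample lay so far from the other 4 that its gap passed Dixon's 95% limit on the log2 scale; chance gives about 1 such group in 20. Bull 2 accounted for 4 of the livers. There GSTK1 was at 58.0 CPM against 102 to 115 CPM in the other bulls, GSTT3 at 18.4 against 84.2 to 144, UGT3A2 at 111 against 189 to 229, and SULT2B1 at 0.537 against 2.18 to 2.86 CPM. The library labelled bull 3, which had XIST reads and no Y-linked reads, was counted among the other bulls and gave the 189 CPM of UGT3A2. The liver labelled bull 3 stood out for GSTA3, at 648 CPM against 240.0 to 306 CPM, and for SULT1C3, at 0.161 CPM against 3.98 to 5.72 CPM. Among the cows, MGST2 was at 148 CPM in the liver of cow 5 against 77.2 to 85.4 CPM, and MGST1 at 2236 CPM in the fat of cow 3 against 474 to 717 CPM. In muscle, GSTO1 was at 4.29 CPM in cow 4 against 10.9 to 14.7 CPM, GSTP1 at 219.7 CPM in cow 5 against 83.6 to 107 CPM, and GSTZ1 at 8.41 CPM in cow 1 against 13.5 to 14.8 CPM. In pituitary gland, SULT1A1 was at 54.0 CPM in bull 1 against 23.9 to 28.6 CPM in the other bulls.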

How the results depend on the processing

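Of 407 recomputed counts of genes, 356 stayed within 1.5-fold of the reported ones, and of 643 recomputed differences of single genes 600 kept their direction and their side of the threshold while 0 reversed. The count of 17 genes highest in liver ran from 13 to 19. With library sizes alone, which moved the median of all genes by -0.69 for liver to fat, -0.80 for liver to pituitary gland, 0.73 for fat to muscle and -0.86 for muscle to pituitary gland, GSTA5, GSTK1, GSTT4 and MGST2 lost the call. The same setting gave 3 genes higher in muscle than in pituitary gland and 12 the other way, 3 highest in fat and 0 highest in muscle. With filterByExpr, 0 genes were higher in muscle than in fat, 2 in muscle than in liver, 2 were highest in fat and 0 in muscle. The likelihood ratio test gave 2 genes higher in muscle than in fat and 2 highest in muscle. With no fold limit, 2 were higher in muscle than in fat and 2 highest in fat.

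By sex, the quasi-likelihood test called 0 genes in liver, 0 in pituitary gland and 0 over all tissues, DESeq2 called 0 in liver and 2 over all tissues, and filterByExpr left 0 in liver. Among all genes tested, the quasi-likelihood test called 1, 12 and 77, DESeq2 called 20 and 279, and filterByExpr left 13. Leaving out 1 animal or library gave 0 to 2 genes by sex in liver, 0 to 1 in fat, 0 to 1 in muscle, 1 to 2 over all tissues and 0 to 2 with an interaction. Of all 13148 genes, these fits called 10 to 187 in liver, 5 to 22 in fat, 25 to 553 in muscle, 57 to 714 over all tissues and 9 to 197 with an interaction. Leaving out the liver labelled bull 3 together with cow 4 gave 3 in liver, where 154 of all 13148 genes were called against 23 with all 10 livers. Leaving out the liver labelled bull 3 under the quasi-likelihood test or the block gave 0 over all tissues (48 and 10 of all genes). For tissues, leaving out 1 animal or library gave 1 to 2 higher in muscle than in fat, 0 to 2 highest in fat (0 without the fat of bull 5) and 1 to 2 highest in muscle. With the animal as a block, 0 genes passed for sex over all tissues; beside this and the calls of GSTT4 (lost) and GSTT3 (gained) in liver against fat, no count of genes moved past 1.5-fold under the block. Alternatives that left out the liver labelled bull 3 together with cow 4 or with another test were chosen after seeing the data. The cause of these changes was not tested.

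The 5 animals per sex and a floor of 0.157 to 0.580 CPM limit what can be seen for genes such as GSTO2, GSTA5 and UGT8. Counts of unique alignments can be too low for similar copies in the GSTA, GSTM, UGT1A, UGT2 and SULT1A groups, and UGT1A1 and UGT1A6 overlap in the annotation. Sexes were compared at 1 age only.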

Other observations

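Outside the transferases, some genes of the related lists had another order of tissues; these were picked after their values were seen. GPX3, the secreted glutathione peroxidase, was called highest in pituitary gland, at a mean of 3429 CPM. PAPSS1, the other enzyme that makes PAPS, was called highest in pituitary gland as well, while PAPSS2 was called highest in liver. GSTM3 in fat was at 112 CPM in cow 2 and 111 CPM in bull 5, against 4.82 to 39.4 CPM in the other 8 animals.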
